A study of Mus musculus with 23 samples.

Results

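Collagen genes were followed in sorted fetal thymic epithelial cells (TECs). They were taken as the protein-coding mouse genes whose symbol consists of Col, a type number, the letter a and a chain number, and 44 of the 50123 genes in the count table met this rule. By the structure of the protein they comprise 11 fibrillar genes, 9 genes of basement membranes, 9 FACIT genes (fibril-associated collagens with interrupted triple helices) and 15 others, among them the types VI, VIII, XIII, XVII and XXVI. Of the 44, 39 passed the filter on low counts and were tested, namely 10 fibrillar, all 9 basement membrane, all 9 FACIT and 11 other genes, whereas Col5a3, Col10a1, Col28a1, Col6a5 and Col8a1 did not pass.

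Collagens are extracellular proteins built from a triple helix of alpha chains, and many types need chains from different genes to assemble. Fibrillar types I, III and V give mesenchymal connective tissue its tensile fibres, type II is the fibril of cartilage, and type IV forms the sheet-like network on which epithelia, including the thymic epithelium, rest. In the thymus, mesenchyme of the capsule and septa is a known source of fibrillar collagen, while both epithelium and mesenchyme are known to contribute to basement membranes.

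RNA-seq was performed on 23 libraries of 100 sorted cells each, and the study asked how Notch signalling acts on fetal TECs. PLET1, a surface protein of early thymic epithelial progenitors, was used to sort PLET1+ cells at E12.5, and PLET1+ and PLET1- cells at E14.5. Each of these populations was represented by 3 control libraries, labelled wild type, and 3 libraries of the Rbpj conditional knockout (cKO, Foxn1Cre RbpjFL/FL), in which Cre driven from the Foxn1 locus deletes the DNA-binding partner of the Notch receptors in TECs. A seventh group of 5 E14.5 PLET1+ libraries carried Foxn1Cre Rosa26FL-STOP-FL-NICD-IRES-EGFP, so that the Notch intracellular domain (NICD) is expressed after Foxn1Cre excises the stop cassette. The strain was labelled C57BL/6 in all groups and no treatment was given. The NICD libraries were the only ones of batch 5, came from 1 litter of a separate cross and were sorted in a different laboratory (Lausanne, with Edinburgh for all others), so that genotype, batch, litter and laboratory cannot be told apart for NICD. The E12.5 and E14.5 libraries also fall in different batches, so age and batch cannot be told apart. For NICD the methods name 5 embryos, and for the Rbpj cross 2 litters and 2 collection days at each stage. Which embryo or litter gave which library is not stated, and the p-values measure the spread between these libraries.

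Total counts ranged from 20053241 to 92699969 per library, and between 14 and 36 of the 44 collagen genes had more than 3 counts in a library. Every library expressed all 8 genes of the thymic epithelium list (Epcam, Krt8, Krt18, Cdh1, Foxn1, Pax9, Pax1 and Eya1) above 3 counts, with a sum between 2951 and 11419 CPM (reads on a gene scaled by TMM to a common library size, the unit of every level below unless a length is named). The summed level of 8 endothelial genes was between 0.105 and 20.5 CPM, and that of 8 haematopoietic genes between 0.0566 and 58.8 CPM. The mesenchyme list (Pdgfra, Pdgfrb, Twist1, Twist2, Prrx1, Lum, Dcn, Dpt, Postn and Vim) was uneven, from 20.6 CPM in an E12.5 cKO library to 1270 CPM in a PLET1- control library. Rbpj itself spanned 18.4 to 20.4 CPM in E14.5 PLET1+ controls and 0.0611 to 10.4 CPM in the PLET1+ cKO, while at E12.5 the control range of 15.1 to 37.9 CPM overlapped the cKO range of 2.09 to 16.2 CPM. In libraries of sorted cells such as these, fewer cells of a type and less RNA per cell cannot be told apart.

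Type IV and type XVIII chains are the structural collagens of epithelial basement membranes, and several of them were present in every library. Col4a1, Col4a2, Col18a1, Col4a5 and the FACIT gene Col12a1 had more than 3 counts in all 23 libraries. A further 22 collagen genes did so in 12 to 22 libraries and 16 in 1 to 11 libraries. Among these were the remaining type IV chains, Col4a6 in 22 libraries, Col4a3 in 9 and Col4a4 in 8. Col8a1, a short-chain collagen of vascular and ocular membranes, had at most 2 counts, where 3 counts were taken as the limit that a count of 0 allows. Reads were not tagged by molecule, so this limit covers counting error only. Every fibrillar gene was at or below 3 counts in at least 1 library.

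Per kilobase of merged exons, the mean level over the 23 libraries was highest for Col4a1, at 12.3 CPM per kb, followed by Col4a2 at 10.6 and Col18a1 at 5.52 CPM per kb. Together these genes took the larger share of the summed collagen level per kb, with 23.2%, 20.1% and 10.5%. Col3a1 (2.90), Col4a5 (2.79), Col6a1 (2.77), Col2a1 (2.15), Col8a2 (1.89), Col1a1 (1.69), Col9a1 (1.49) and Col27a1 (1.09 CPM per kb) came next. The remaining 33 genes had mean levels at or under 0.965 CPM per kb, which was that of Col1a2. Among the genes not described by library, the mean ranged from 0.000235 CPM per kb (Col8a1) to 0.839 CPM per kb (Col5a1) apart from Col4a5.

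The spread between libraries of a group differed widely between genes, and the classes overlapped in it. On the log2(CPM + 1) scale the within-group SD ran from 0.065 (Col5a3, nearly without counts) to 2.13 among fibrillar genes and from 0.36 (Col15a1) to 0.83 (Col4a5) among basement membrane genes. Of the more abundant genes it was 0.40 for Col4a1, 0.47 for Col18a1 and 0.58 for Col4a2, 0.77 for Col9a1, 1.02 for Col27a1 and 1.12 for Col2a1, but 2.13 for Col3a1, 1.92 for Col1a2, 1.91 for Col1a1 and 1.82 for Col6a1. Differences between groups in the last 4 genes were therefore read library by library. The ranking depended little on the length used, since 11 of the 12 genes in the top 3 of their class stayed there when the longest transcript replaced the merged exons.

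**Figure D1:**
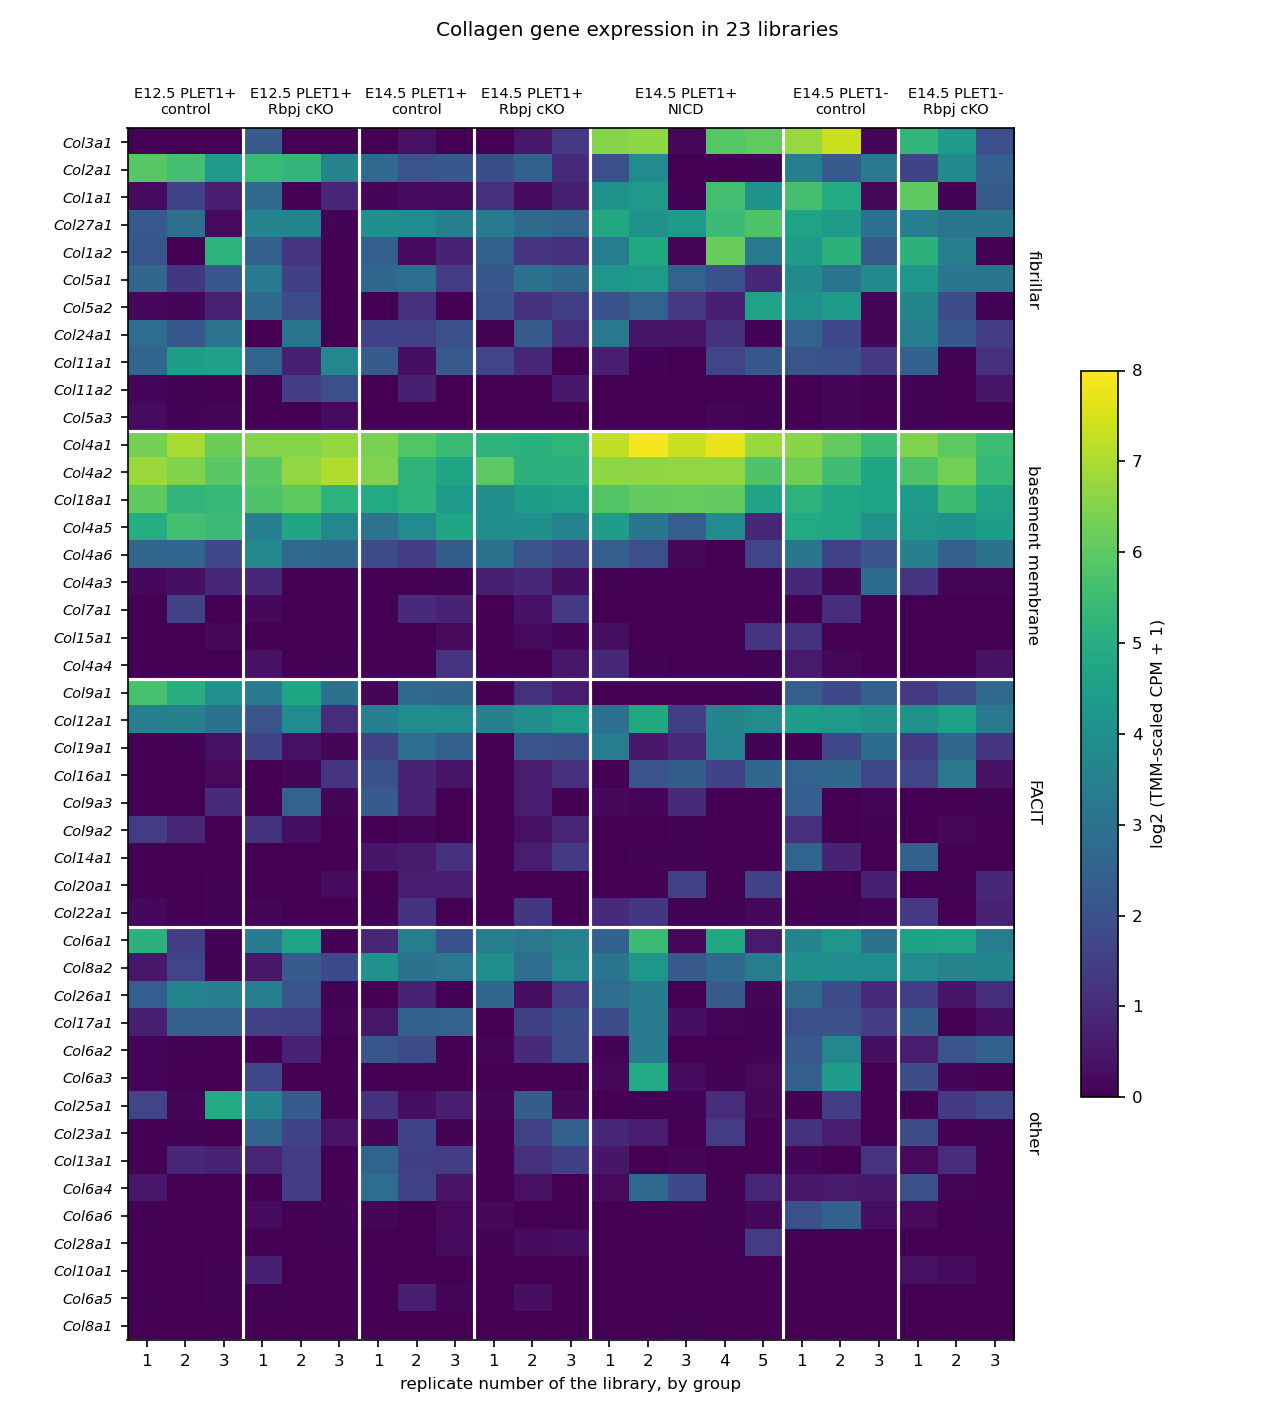
Map of the 44 collagen genes (rows, by class) in the 23 libraries (columns, by group), with colour giving log2(CPM + 1). Col4a1, Col4a2 and Col18a1 form continuous bands across all groups, whereas Col3a1, Col1a1 and Col1a2 are bright in some libraries of a group and near 0 in others.

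The basement membrane genes were described first. Col4a1 (ENSMUSG00000031502.11) encodes the alpha1 chain of the most widespread type IV network and lies on chromosome 8 of GRCm38, from 11198423 to 11312826 on the minus strand. Col4a2 (ENSMUSG00000031503.13), its obligate partner with 1 chain per helix, begins head to head with it and runs from 11312805 to 11449287 on the plus strand, so that their annotated ends overlap by 22 bases. A pair of X-linked genes, Col4a5 and Col4a6, and the pair Col4a3 and Col4a4 on chromosome 1 are likewise arranged head to head, with gaps of 1308 and 71 bases.

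In E14.5 PLET1+ cells, Col4a1 was at 82.2, 55.7 and 43.1 CPM in the control libraries and at 149, 235, 159, 209 and 107 CPM in the NICD libraries. All 5 NICD libraries exceeded the highest control library. In the E14.5 PLET1+ cKO it was at 36.2, 33.7 and 36.2 CPM, below each control library. The values in PLET1- cells were 94.9, 67.2 and 43.6 CPM in controls and 86.1, 61.7 and 44.7 CPM in the cKO. At E12.5 they were 78.8, 123 and 72.6 CPM in controls and 90.8, 91.3 and 104 CPM in the cKO. Within each of these last 2 populations the cKO and control ranges overlapped.

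Col4a2 was at 87.4, 36.0 and 25.4 CPM in E14.5 PLET1+ controls and at 98.3, 100.4, 104, 104 and 55.0 CPM with NICD, where the lowest NICD library lay inside the control range. Its values were 62.8, 34.3 and 33.2 CPM in the PLET1+ cKO. Among PLET1- libraries they were 75.3, 46.0 and 25.3 CPM for controls and 52.9, 77.3 and 40.5 CPM for the cKO. At E12.5 Col4a2 was at 110.4, 89.1 and 60.4 CPM in controls and 61.5, 104 and 130 CPM in the cKO. All 3 pairs of cKO and control groups overlapped for Col4a2.

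Col18a1, which encodes the core protein of a heparan sulphate proteoglycan of basement membranes and the precursor of endostatin, was at 28.9, 35.3 and 19.9 CPM in E14.5 PLET1+ controls and at 57.5, 66.4, 67.7, 67.0 and 24.2 CPM with NICD. Thus 4 of the 5 NICD libraries lay above the control range and the fifth inside it. The PLET1+ cKO libraries held 14.01, 21.1 and 22.9 CPM, and in PLET1- cells the values were 35.0, 26.2 and 23.7 CPM in controls and 20.5, 43.4 and 24.7 CPM in the cKO. At E12.5 the values were 64.0, 37.1 and 39.7 CPM in controls and 54.4, 63.1 and 35.4 CPM in the cKO. The E12.5 controls all exceeded the E14.5 PLET1+ controls. Col4a5, a chain of the kidney and skin networks, was at 7.35, 13.99 and 25.9 CPM in E14.5 PLET1+ controls against 30.0, 47.5 and 42.9 CPM in E12.5 controls. In NICD libraries Col4a5 ranged from 0.807 to 21.1 CPM and overlapped the controls.

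**Figure D2:**
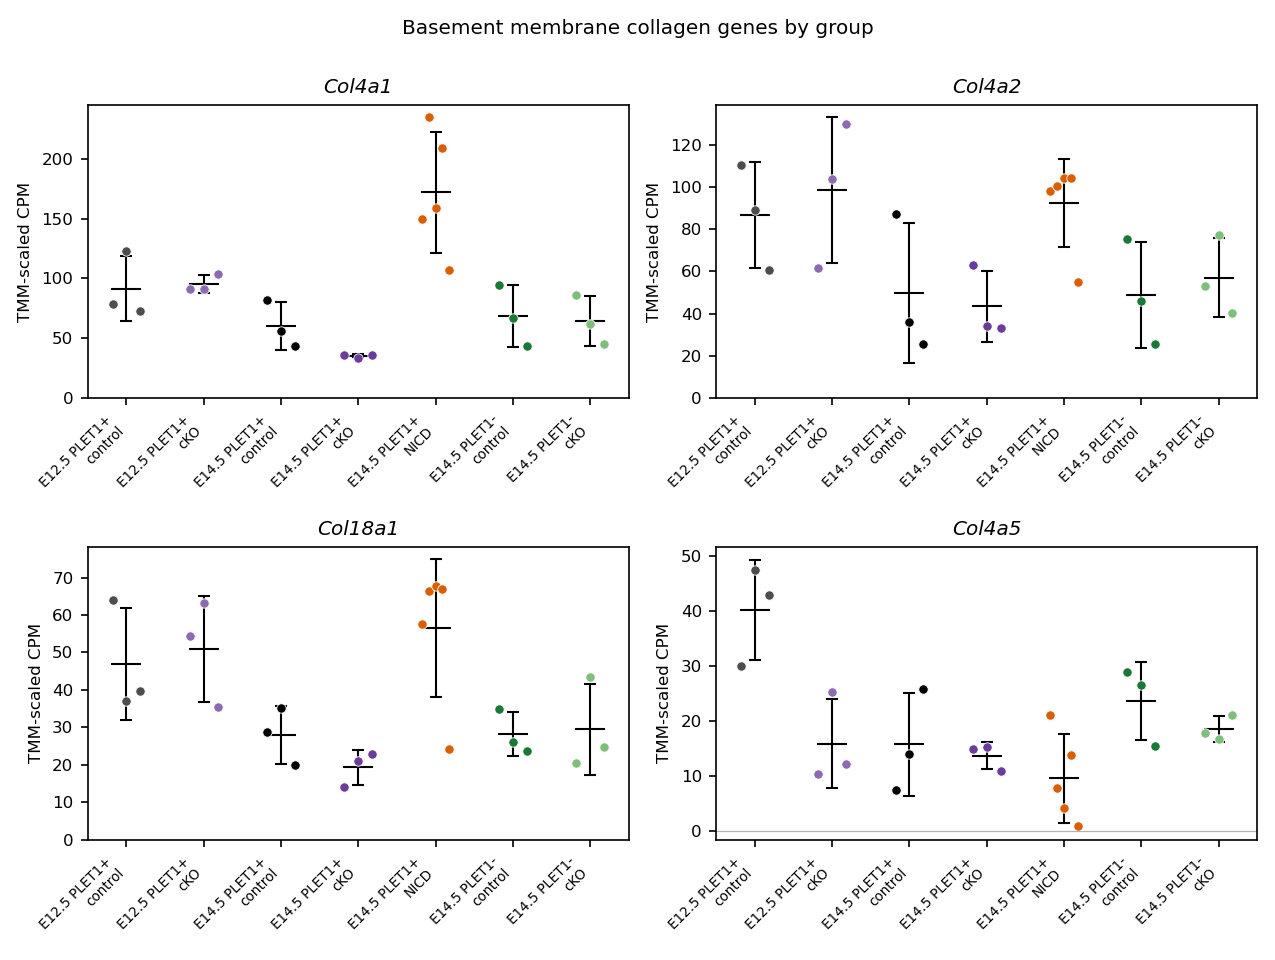
Levels of Col4a1, Col4a2, Col18a1 and Col4a5 (CPM) in each library by group, with a bar at the group mean and error bars of 1 SD. For Col4a1 the 5 NICD points lie between 107 and 235 CPM, above the 43.1 to 82.2 CPM of the E14.5 PLET1+ controls, and the 3 PLET1+ cKO points lie between 33.7 and 36.2 CPM.

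Comparison of NICD with control E14.5 PLET1+ TECs addressed what enforced Notch signalling does to TECs. Of the 39 collagen genes tested, Col4a1 rose and Col9a1 fell at an adjusted p of at most 0.05, while 0.684% of all 19140 genes tested did so in either direction, 0.266% higher and 0.418% lower. Col4a1 averaged 172 ± 50.5 CPM (SD, n = 5) with NICD and 60.3 ± 19.95 CPM (SD, n = 3) in controls, a difference of 1.54 on the log2 scale (standard error, SE, 0.30, adjusted p = 0.0248 by edgeR, with p-values adjusted by Benjamini-Hochberg across the 19140 genes). The call rested on all 3 controls. Without control replicates 1, 2 and 3 in turn the adjusted p was 0.0698, 0.192 and 0.17, with log2 fold changes of 1.76, 1.45 and 1.52, and over 16 alternative fits the adjusted p ranged from 1.54e-05 to 0.192. Library measures also differed between these groups. Mitochondrial genes took 9.60% to 12.8% of counts in NICD libraries and 9.54%, 5.32% and 4.499% in the controls, in the order of their Col4a1 levels. In the PLET1+ cKO these shares were 9.15%, 4.21% and 5.36%, with Col4a1 at 36.2, 33.7 and 36.2 CPM. Total counts were 63587152 to 92699969 with NICD and 28284253 to 48312976 in controls, and the part of either measure in the Col4a1 difference was not tested.

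Col4a2 and Col18a1 shifted in the same direction without passing the adjustment, with log2 fold changes of 1.002 (SE 0.38, adjusted p = 0.21) and 1.03 (SE 0.39, adjusted p = 0.209) by edgeR. The summed level of the 9 basement membrane genes was 333 ± 87.0 CPM (SD, n = 5) with NICD and 158 ± 45.5 CPM (SD, n = 3) in controls. Of these 9 genes 5 had a higher and 4 a lower fitted level, and the class had a median log2 fold change of 1.002 against 0.04 over all genes tested. The ratio of Col4a2 to Col4a1 per kb was between 0.482 and 0.743 in NICD libraries and between 0.665 and 1.20 in the controls. Differences in this ratio were not tested.

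Across the whole list the direction of change was balanced. With NICD 19 collagen genes were higher and 20 lower, where 51.4% of all genes were higher, and the median log2 fold change was -0.01 against 0.04 over all genes tested. At an unadjusted p under 0.05 by edgeR, 8 of 39 collagen genes were higher, a larger share than the 5.66% of all genes tested. In the same way 4 of 39 were lower, beside 10.1% of all genes. In either direction it was 12 of 39, beside 15.7%. The higher ones were Col3a1, Col1a1, Col5a2, Col27a1, Col4a1, Col4a2, Col18a1 and Col6a3, and the lower ones Col11a2, Col7a1, Col14a1 and Col9a1. The NICD and control libraries did not overlap for 3 higher genes (Col27a1, Col4a1 and Col6a3, 7.69% of the list beside 5.22% of all genes, although the lowest NICD library held only 2 counts of Col6a3 against 0 in each control) and for 3 lower genes (Col14a1, Col9a1 and Col13a1, 7.69% beside 6.52%). The shares without overlap lay close to those of all genes. The summed level of all collagen genes was 555 ± 171.5 CPM (SD, n = 5) with NICD and 239 ± 55.5 CPM (SD, n = 3) in controls. The class medians on the log2 scale were 1.22 for fibrillar genes, -0.01 for FACIT genes and -0.16 for the others.

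**Figure D3:**
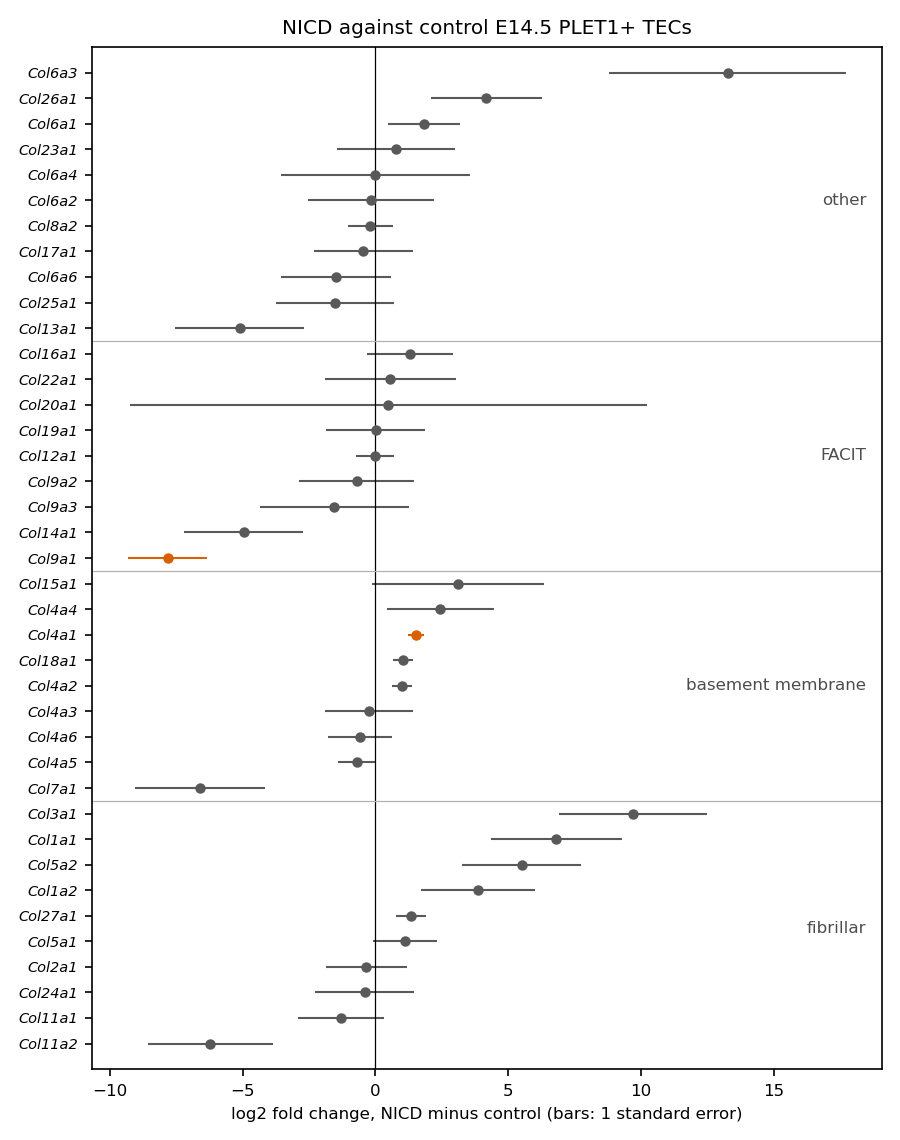
Log2 fold change of each tested collagen gene between NICD and control E14.5 PLET1+ libraries with bars of 1 standard error, sorted within class, where orange marks the genes called by edgeR and grey the others. Col4a1 at 1.54 and Col9a1 at -7.83 are the genes called, and the wide error bars belong to genes that are at or near 0 counts in several libraries.

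Col9a1 (ENSMUSG00000026147.16), the alpha1 chain of a FACIT collagen that decorates type II fibrils, lies on chromosome 1 from 24177610 to 24252684 on the plus strand. RefSeq places transcript starts at 2 sites of this gene, and the exon-free stretches before them are shown (RefSeq, GRCm38.p6, plus strand, chr1:24177360-24177609 for the upstream start and chr1:24194953-24195186 for the downstream start), since Col9a1 was the collagen gene with the lowest adjusted p. Capitals mark a match to the RBPJ core TGGGAA or its reverse complement TTCCCA, the GC box GGGCGG, the motif CCAAT or the motif TATAAA on either strand.
Col9a1 upstream start: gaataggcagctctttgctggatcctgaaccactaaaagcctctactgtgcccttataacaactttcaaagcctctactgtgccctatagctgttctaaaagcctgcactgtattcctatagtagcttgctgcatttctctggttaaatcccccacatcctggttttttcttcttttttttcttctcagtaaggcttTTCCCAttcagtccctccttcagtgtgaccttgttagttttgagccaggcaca
Col9a1 downstream start: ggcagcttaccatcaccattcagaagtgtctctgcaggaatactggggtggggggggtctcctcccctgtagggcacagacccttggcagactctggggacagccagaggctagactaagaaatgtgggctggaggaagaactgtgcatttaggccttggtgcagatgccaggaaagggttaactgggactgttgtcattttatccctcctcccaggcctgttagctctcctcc
The first stretch held TTCCCA at position 198 and the second none of the 4 motifs. The share over all genes was counted in full windows of 300 bases, which are longer than the stretches shown. Of all 32851 such RefSeq windows 25.6% held the RBPJ core, so a match is common and describes letters only.

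In E14.5 PLET1+ controls Col9a1 had 3, 322 and 228 counts, or 0.109, 5.85 and 5.41 CPM. The 5 NICD libraries held 0, 0, 0, 1 and 4 counts and at most 0.0504 CPM, below each control, although the lowest control was itself near that level. This amounted to -7.83 on the log2 scale (SE 1.48, adjusted p = 0.0193, edgeR), and its size rests on 5 counts in the NICD libraries together. Without control replicate 2 or 3 the adjusted p was 0.151 or 0.0655, and over 15 alternative fits it ranged from 1.16e-08 to 0.151.

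Levels of Col9a1 in the other groups spanned a wide range. E12.5 controls held 49.8, 32.1 and 15.5 CPM of Col9a1 and the E12.5 cKO 8.91, 25.9 and 7.01 CPM. PLET1- cells at E14.5 held 4.32, 2.36 and 4.49 CPM in controls and 1.56, 2.67 and 5.68 CPM in the cKO, whereas the PLET1+ cKO libraries held 0, 1.23 and 0.522 CPM. All E12.5 libraries lay above every E14.5 library. Between E14.5 and E12.5 controls the fitted log2 difference was -3.02 (SE 1.47, unadjusted p = 0.0548, edgeR), which did not pass the test.

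The partner chains of type IX collagen had few counts in most libraries. Col9a2 had at most 48 counts in any library, in an E12.5 control, and more than 3 counts in 10 of 23 libraries. Col9a3 had more than 3 counts in 10 libraries, with at most 164 counts in a PLET1- control. Per kb the ratio of Col9a2 to Col9a1 had a median of 0.0724 over the 9 libraries where it could be formed and ran from 0.0145 to 2.53. The ratio of Col9a3 to Col9a1 had a median of 0.193 over 6 libraries and ran from 0.0279 to 1.28. In PLET1- control replicate 1 Col9a3 had 164 counts beside 169 of Col9a1, and in E14.5 PLET1+ control replicate 1 it had 109 beside 3, so the partner chains were not below Col9a1 in every library. Of the cartilage list, Acan, Matn1, Comp, Chad and Hapln1 had at most 324 counts in a library and mostly 0, whereas Sox9 was at 102 to 138 CPM in PLET1+ controls and at 251 to 406 CPM with NICD.

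Fibrillar genes of connective tissue formed a different pattern, in which some libraries of a group had many counts and others almost none. Col3a1, the type III chain of loose connective tissue, lies on chromosome 1 from 45311538 to 45349706 on the plus strand, tail to tail with Col5a2 at a distance of 24614 bases. Its RefSeq promoter stretch (GRCm38.p6, plus strand, chr1:45311288-45311537) is shown because Col3a1 had the largest spread within groups among the collagen genes, and its only match, TATAAA at position 134, is in capitals.
Col3a1 promoter: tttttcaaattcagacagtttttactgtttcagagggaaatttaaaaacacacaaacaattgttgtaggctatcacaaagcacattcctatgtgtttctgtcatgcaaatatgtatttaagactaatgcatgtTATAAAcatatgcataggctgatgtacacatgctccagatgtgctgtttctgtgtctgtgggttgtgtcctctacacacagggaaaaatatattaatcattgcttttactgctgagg
TATAAA occurred in 13.6% of all 32851 full windows and in 13.2% of the 38 full windows of collagen genes.

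Col3a1 had 0, 15 and 0 counts in E14.5 PLET1+ controls and 6265, 6498, 10, 4230 and 5218 counts in the NICD libraries. In PLET1- controls it had 4238, 4884 and 6 counts, and in the PLET1- cKO 1795, 785 and 80 counts. The PLET1+ cKO held 0, 19 and 64 counts and the 3 E12.5 controls 0, while 1 of 3 E12.5 cKO libraries held 114 and the others 0. Hence 4 of 5 NICD and 2 of 3 PLET1- control libraries were high, and the remaining library of each group was at the level of the PLET1+ controls.

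Col1a1, the alpha1 chain of type I collagen, had 1085, 1222, 4, 3425 and 1272 counts in the same NICD libraries and 2, 11 and 7 in the PLET1+ controls. It had 1904, 865 and 7 counts in PLET1- controls, 3016, 2 and 107 in the PLET1- cKO and 36, 8 and 27 in the PLET1+ cKO. At E12.5 it had 4, 127 and 32 counts in controls and 172, 0 and 15 in the cKO. The NICD library with 4 Col1a1 counts was the one with 10 Col3a1 counts. Col1a2, the partner chain, was at 9.23, 27.9, 0.0828, 69.8 and 8.40 CPM with NICD and at 4.37, 0.200 and 0.689 CPM in PLET1+ controls. Its levels were 20.3, 34.5 and 3.82 CPM in PLET1- controls, 34.6, 10.3 and 0 CPM in the PLET1- cKO and 4.58, 1.35 and 1.21 CPM in the PLET1+ cKO. At E12.5 they were 3.37, 0.0164 and 35.3 CPM in controls and 4.52, 1.33 and 0 CPM in the cKO. The 2 chains of type I collagen were not in a fixed proportion, since the ratio of Col1a2 to Col1a1 per kb ran from 0.220 to 31.4 over 17 libraries.

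Between NICD and control PLET1+ libraries none of these passed the adjustment. On the log2 scale Col3a1 differed by 9.70 (SE 2.80, adjusted p = 0.122), Col1a1 by 6.81 (SE 2.47, adjusted p = 0.195) and Col5a2, a regulator of fibril diameter, by 5.51 (SE 2.24, adjusted p = 0.239) by edgeR. DESeq2 called Col3a1, Col5a2 and Col1a1 in addition to Col4a1 and Col9a1. The summed level of Col1a1, Col1a2, Col3a1 and Col5a2 was 121, 151, 1.81, 175 and 114 CPM with NICD and between 0.855 and 4.44 CPM in the PLET1+ controls.

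Markers of mesenchyme were higher in most libraries with high fibrillar levels, but individual markers did not all follow. The summed level of the 10 mesenchyme genes was 321, 133, 104, 302 and 280 CPM in the NICD libraries, in that order, with 5 to 7 of the 10 genes above 3 counts, and 42.9, 42.8 and 21.9 CPM in the PLET1+ controls, with 3 to 7 of 10. In PLET1- controls it was 359, 1270 and 21.9 CPM, and the library at 21.9 CPM was the one with 6 Col3a1 counts. In the PLET1- cKO it was 497, 111 and 41.8 CPM, in the PLET1+ cKO 23.7 to 62.8 CPM and at E12.5 20.6 to 104 CPM. Which genes made up the sum differed between libraries. Lum and Dcn, small proteoglycans that bind collagen fibrils, were at 180.3 and 71.1 CPM of the 302 CPM in NICD replicate 4 and at 240.5 and 673 CPM of the 1270 CPM in PLET1- control replicate 2. In NICD replicate 2, which had the most Col3a1 counts, Lum was at 14.2 and Dcn at 1.54 CPM, beside up to 13.9 and 8.65 CPM in PLET1+ controls. That NICD library held Postn at 21.5 CPM, with 210 counts of Pdgfra, 379 of Pdgfrb, 72 of Prrx1 and 0 of Twist1. The PLET1+ controls held Postn at 0 to 4.85 CPM, with at most 3 counts of Pdgfra, 0 of Pdgfrb, 10 of Prrx1 and 62 of Twist1. In NICD replicate 2 Vim, an intermediate filament gene used by many cell types, gave 85.5 of 133 CPM. Vim also gave 81.0 of 104 CPM in NICD replicate 3, the library low in fibrillar genes, and 61.8 of 104 CPM in E12.5 control replicate 3.

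The markers Twist1, Prrx1, Pdgfra and Pdgfrb were uneven and did not all go the same way. Twist1, a transcription factor of mesenchyme, was at 0 to 0.234 CPM in NICD libraries and at 0 to 1.47 CPM in PLET1+ controls. Prrx1, of the same list, had 427, 72, 0, 0 and 60 counts in NICD libraries and 0, 10 and 0 in PLET1+ controls. The receptor genes Pdgfra and Pdgfrb had 0 to 860 and 0 to 379 counts over all libraries and each was at 0 in several. Pdgfra had 181, 210, 1, 13 and 423 counts in NICD libraries and 3, 0 and 0 in PLET1+ controls. Pdgfrb had 1, 379, 0, 0 and 1 counts with NICD and 0 in each PLET1+ control. In PLET1- cKO replicate 1 Pdgfra had 0 counts and Prrx1 had 1039. There the 4 fibrillar genes summed to 147 CPM and Dcn was at 354 CPM. TECs are marked in the study by EPCAM, a surface protein of epithelia. The exact gate for these libraries is not given in the sources used here. Epcam was at 369 to 946 CPM in the 23 libraries. The part of mesenchymal cells in the fibrillar levels was not tested.

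**Figure D4:**
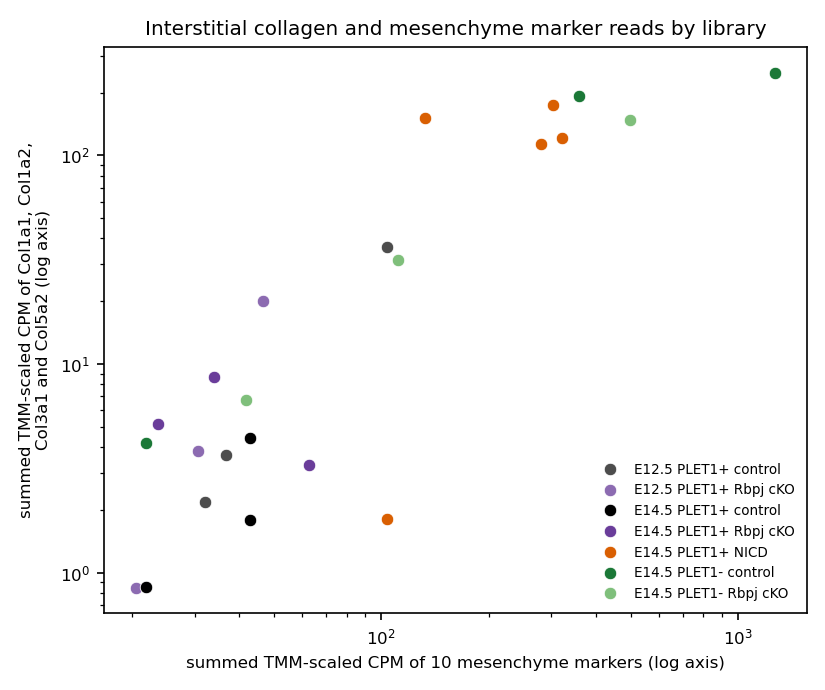
Summed level of Col1a1, Col1a2, Col3a1 and Col5a2 (CPM, log axis) against the summed level of the 10 mesenchyme markers (CPM, log axis), with 1 point per library coloured by group. Of the 5 NICD libraries 4 lie at 114 CPM or more and 1 at 1.81 CPM, PLET1- controls lie at 193, 249 and 4.16 CPM, and PLET1- cKO libraries run from 6.71 to 147 CPM.

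Comparison of PLET1- with PLET1+ control TECs at E14.5 addressed how cells that have lost the progenitor marker differ. By edgeR 0 collagen genes were called, as were 0% of all genes tested, whereas limma-voom called 0 collagen genes and DESeq2 called Col3a1 and Col1a1. At an unadjusted p under 0.05, 5 of 39 collagen genes were higher and 0 lower, beside 2.87% of all genes, 1.17% higher and 1.7% lower. They were Col3a1, Col1a1, Col5a2, Col4a3 and Col6a3. The median log2 fold change was 0.57 over the collagen genes and -0.02 over all genes, with 26 of 39 higher beside 48.7% of all genes. Libraries did not overlap for 5 higher genes (Col5a1, Col4a3, Col12a1, Col26a1 and Col6a6, 12.8% of the list beside 4.66% of all genes) and for 1 lower gene, Col13a1 (2.56% beside 5.03%). For Col3a1, batch 3 held both high PLET1- libraries beside PLET1+ libraries at 0 and 15 counts, while batch 4 had 6 counts in PLET1- and 0 in PLET1+ cells. The summed level of 4 parathyroid genes (Gcm2, Pth, Casr and Chga) was 1559, 920 and 2.17 CPM in the PLET1- controls, high in the same 2 libraries as Col3a1, and 2.11, 400 and 3.47 CPM in the PLET1+ controls. Pth alone gave 1432 of the 1559, 864 of the 920 and 377 of the 400 CPM. In the PLET1- cKO the sum was 1.12, 255 and 339 CPM, where the library at 1.12 CPM had the most Col3a1 counts. Parathyroid cells' part in the difference was not tested.

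Levels of several collagen genes did not overlap between the stages in controls. Comparing E14.5 with E12.5 PLET1+ controls, edgeR called Col27a1 as higher, where 0.967% of all genes were called in either direction, 0.831% as higher and 0.136% as lower. Col27a1 (ENSMUSG00000045672.15, chromosome 4, 63214004 to 63334991, plus strand), a fibrillar chain best known from growth cartilage, was at 3.74, 6.79 and 0.167 CPM in E12.5 controls and at 15.1, 13.9 and 9.64 CPM in E14.5 PLET1+ controls, without overlap. The difference was 2.89 on the log2 scale (SE 0.66, adjusted p = 0.0429, edgeR). This call was lost in 10 of 14 alternative fits, among them the omission of E12.5 control replicate 1 or 2 (adjusted p = 0.304 or 0.257) and of E14.5 control replicate 1, 2 or 3 (0.109, 0.123 or 0.167), while the log2 fold change stayed between 1.85 and 3.77.

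In the remaining groups Col27a1 was at 11.01, 11.3 and 0.0566 CPM in the E12.5 cKO, 9.04, 5.75 and 4.89 CPM in the PLET1+ cKO, 24.0, 20.4 and 6.996 CPM in the PLET1- controls, with 9.66, 7.56 and 7.86 CPM in the PLET1- cKO. All 5 NICD libraries, at 27.2, 15.8, 19.1, 42.7 and 54.1 CPM, exceeded the highest E14.5 PLET1+ control, and all 3 PLET1+ cKO libraries lay below the lowest. Neither difference passed the adjustment, with log2 fold changes of 1.33 (SE 0.56, adjusted p = 0.257, edgeR) for NICD and -0.97 (SE 0.60, unadjusted p = 0.124) for the cKO. These comparisons share the same 3 control libraries.

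Col8a2, a network-forming short-chain collagen, was at 0.416, 2.21 and 0.0557 CPM in E12.5 controls and at 15.5, 7.08 and 7.93 CPM in E14.5 PLET1+ controls. The log2 fold change of 3.91 (SE 1.10, adjusted p = 0.122, edgeR) did not pass the adjustment although the libraries did not overlap. The E12.5 cKO held 0.442, 4.03 and 2.49 CPM, and the E14.5 groups held 14.7, 13.9 and 13.7 CPM in PLET1- controls, 14.53, 6.36 and 11.9 CPM in the PLET1+ cKO, 13.7, 10.9 and 11.6 CPM in the PLET1- cKO and 7.45, 17.9, 3.68, 5.60 and 9.51 CPM with NICD. Every E12.5 library except 1 cKO library, at 4.03 CPM, lay below every E14.5 library.

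Col2a1, the type II chain of cartilage fibrils, followed the opposite order. It was at 59.9, 48.2 and 18.8 CPM in E12.5 controls and 41.9, 38.5 and 10.9 CPM in the E12.5 cKO, against 5.89, 3.14 and 3.54 CPM in E14.5 PLET1+ controls. The PLET1+ cKO held 2.78, 4.55 and 0.973 CPM, PLET1- controls 9.91, 3.94 and 8.54 CPM and the PLET1- cKO 2.15, 12.8 and 4.25 CPM. In the NICD libraries Col2a1 was at 2.89, 13.6, 0, 0 and 0.0252 CPM. E12.5 controls did not overlap E14.5 PLET1+ controls, but edgeR gave an unadjusted p over 0.05 for this difference.

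**Figure D5:**
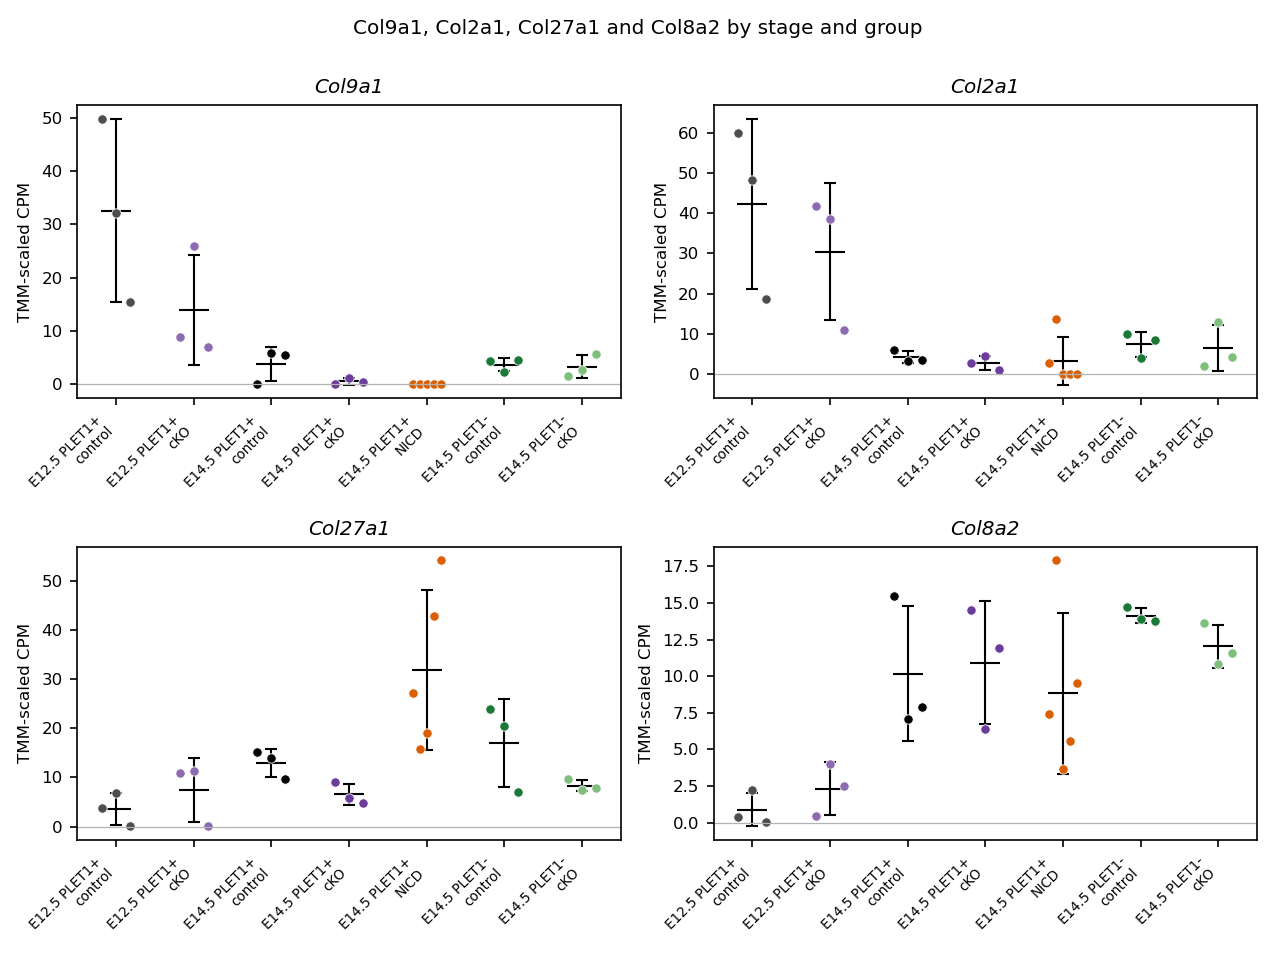
Levels of Col9a1, Col2a1, Col27a1 and Col8a2 (CPM) in each library by group, with a bar at the group mean and error bars of 1 SD. The group means of Col9a1 and Col2a1 are highest in the E12.5 groups, whereas Col27a1 and Col8a2 are higher in E14.5 than in E12.5 controls.

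Across the list, 20 of 39 collagen genes were higher at E14.5, beside 55.9% of all genes, with a median log2 fold change of 0.37 against 0.19 over all genes. At an unadjusted p under 0.05, 4 were higher (Col27a1, Col8a2, Col14a1 and Col16a1) and 2 lower (Col4a2 and Col26a1), beside 12.9% of all genes, 9.08% higher and 3.86% lower. Libraries did not overlap for 6 higher genes (15.4% of the list beside 11.5% of all genes) and for 9 lower genes, Col11a1, Col24a1, Col2a1, Col18a1, Col4a3, Col4a5, Col9a1, Col26a1 and Col6a3 (23.1% beside 8.82%), of which Col6a3 had only 1 or 2 counts in the E12.5 libraries. The class medians were -1.08 for fibrillar, -0.63 for basement membrane, 3.95 for FACIT and 2.24 for other genes. The FACIT genes Col14a1, Col16a1, Col19a1 and Col20a1 had at most 15 counts in any E12.5 control. Mean summed levels were lower at E14.5 in every class. From E12.5 to E14.5 they were 85.6 and 29.1 CPM for fibrillar and 271 and 158 CPM for basement membrane genes. For FACIT genes they were 43.0 and 24.8 CPM, and for other genes 35.6 and 27.5 CPM. The libraries of the stages overlapped in both of these classes. They ran from 24.1 to 61.7 and from 19.4 to 29.6 CPM for FACIT genes. For other genes they ran from 20.6 to 43.5 and from 18.8 to 32.7 CPM. Col9a1 alone averaged 32.5 and 3.79 CPM of the FACIT sums, while 7 of 9 FACIT genes had a higher fitted level at E14.5. Col26a1, an EMI-domain collagen, was at 4.20, 11.2 and 9.72 CPM in E12.5 controls and at 0, 0.690 and 0.0475 CPM in E14.5 PLET1+ controls. Its log2 fold change of -5.62 had a standard error of 2.35 and an adjusted p of 0.336 by edgeR. The same 4 genes of the parathyroid, an organ that arises from the same pharyngeal pouch, summed to 1400, 1568 and 9091 CPM in the E12.5 controls. Pth alone gave 1216, 1492 and 8674 CPM of these sums. In the E14.5 PLET1+ controls the 4 genes summed to 2.11, 400 and 3.47 CPM, and their part in these differences was not tested.

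The remaining E12.5 and E14.5 values of Col26a1 were 9.62, 3.25 and 0.0566 CPM in the E12.5 cKO, 5.82, 2.56 and 0.970 CPM in PLET1- controls, 5.49, 0.246 and 1.61 CPM in the PLET1+ cKO, 1.77, 0.402 and 1.07 CPM in the PLET1- cKO and 6.22, 8.56, 0, 3.91 and 0.0883 CPM with NICD. Of the leading FACIT genes, Col12a1, which binds type I fibrils, was at 10.1, 10.4 and 6.996 CPM in E12.5 controls, 3.30, 13.8 and 1.08 CPM in the E12.5 cKO and 9.97, 13.7 and 13.4 CPM in E14.5 PLET1+ controls. It was at 20.8, 19.0 and 15.6 CPM in PLET1- controls, 10.4, 14.45 and 20.3 CPM in the PLET1+ cKO, 15.8, 22.2 and 8.32 CPM in the PLET1- cKO and 6.60, 28.2, 1.78, 11.4 and 13.6 CPM with NICD. PLET1- controls all exceeded PLET1+ controls in Col12a1, and the other groups overlapped the controls of their population.

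Col19a1, a FACIT chain of muscle and brain that ends tail to tail with Col9a1 at a distance of 9205 bases, did not share the order of its neighbour. It was at 0, 0.0491 and 0.278 CPM in E12.5 controls and 2.04, 0.275 and 0.113 CPM in the E12.5 cKO, but at 1.89, 6.34 and 4.53 CPM in E14.5 PLET1+ controls. It was at 0, 2.33 and 6.05 CPM in PLET1- controls, 0, 3.19 and 2.94 CPM in the PLET1+ cKO, 1.56, 5.27 and 1.29 CPM in the PLET1- cKO and 9.59, 0.473, 0.938, 10.7 and 0.0378 CPM with NICD. The E12.5 controls lay below all E14.5 PLET1+ controls.

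Type VI collagen is a beaded microfibril whose helix joins the Col6a1 and Col6a2 chains with a chain of another type VI gene. Per kb, Col6a1 was above Col6a2 and Col6a3 in most libraries. Col6a1 was at 34.6, 1.78 and 0.0371 CPM in E12.5 controls and 8.53, 24.3 and 0.0566 CPM in the E12.5 cKO. At E14.5 it was at 0.800, 9.34 and 3.02 CPM in PLET1+ controls, 9.95, 7.94 and 10.7 CPM in the PLET1+ cKO, 11.2, 17.1 and 7.13 CPM in the PLET1- controls, 22.6, 24.4 and 9.47 CPM in the PLET1- cKO and 4.65, 42.8, 0.124, 28.0 and 0.492 CPM with NICD. No compared groups were separated in Col6a1. Between same-numbered libraries of the E14.5 Rbpj cross it was higher in PLET1- than in PLET1+ controls in 3 of 3 pairs, in the PLET1- cKO than in PLET1- controls in 3 of 3 and in the PLET1+ cKO than in PLET1+ controls in 2 of 3. The log2 fold changes were 1.41 (SE 1.42), 0.65 (SE 1.40) and 1.22 (SE 1.42), each with an adjusted p of 1 by edgeR.

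Col6a2 was highest in a PLET1- control at 12.4 CPM and in a NICD library at 8.53 CPM. It had more than 3 counts in 13 of 23 libraries, and per kb its median ratio to Col6a1 was 0.105 over the 13 libraries in which it could be formed. That ratio ran from 0.0122 to 2.25, the highest in E14.5 PLET1+ control replicate 1. For Col6a3 the ratio to Col6a1 ran from 0.00142 to 0.610 over 9 libraries. Col6a3 had 9, 1889, 15, 2 and 12 counts in NICD libraries and 0 in all PLET1+ controls and all PLET1+ cKO libraries, and 169, 588 and 0 in PLET1- controls. It had 127, 4 and 0 counts in the PLET1- cKO, 2, 1 and 1 in E12.5 controls and 67, 0 and 0 in the E12.5 cKO. Against a floor of 3 counts in each control library the mean NICD level of Col6a3 was at least 75.0-fold higher, but 1 NICD library supplied 1889 of the counts, and edgeR gave an adjusted p of 0.184. The PLET1- control mean was at least 103-fold higher on the same floor, with an adjusted p of 1. That mean also rests on few libraries, since 1 PLET1- control held 588 counts and another 0.

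Loss of Rbpj, the comparison that asks what TECs need Notch signalling for, gave no collagen call. In E14.5 PLET1+ cells edgeR, limma-voom and DESeq2 each called 0 of 39 collagen genes, and edgeR called 0% of all genes. At an unadjusted p under 0.05, 1 collagen gene was higher (Col4a3) and 2 were lower (Col4a1 and Col20a1), beside 2.06% of all genes, 0.794% higher and 1.27% lower. The median log2 fold change was -0.16 against -0.02 over all genes, with 18 of 39 higher beside 48.5% of all genes. Libraries did not overlap for 2 higher genes (Col5a2 and Col4a3, 5.13% beside 3.07% of all genes) and 3 lower genes (Col27a1, Col4a1 and Col6a4, 7.69% beside 4.57%). On the log2 scale the cKO effect on Col4a1 was -0.71 (SE 0.32, unadjusted p = 0.042, adjusted p = 1, edgeR). In batch 3 the cKO libraries were at 36.2 and 33.7 CPM beside controls at 82.2 and 55.7 CPM, and in batch 4 the values were 36.2 and 43.1 CPM.

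In E14.5 PLET1- cells each of the 3 tools again called 0 collagen genes and edgeR called 0% of all genes. At an unadjusted p under 0.05, 0 collagen genes were higher and 2 lower (Col4a4 and Col7a1), beside 2.34% of all genes, 0.841% higher and 1.49% lower. Here 27 of 39 were lower in the cKO and 12 higher, beside 51.7% of all genes higher, and the median log2 fold change was -0.32 against 0.02. The groups were separated for 2 lower genes, Col6a6 and Col8a2 (5.13% beside 3.2%). Col4a1 in the PLET1- cKO, at 64.2 ± 20.8 CPM (SD, n = 3), and in PLET1- controls, at 68.5 ± 25.7 CPM (SD, n = 3), overlapped fully. The test of whether the cKO effect differed between PLET1- and PLET1+ cells called 0 collagen genes and 0% of all genes. Here Col4a3 alone was at an unadjusted p under 0.05, beside 2.62% of all genes, and limma-voom and DESeq2 also called 0 collagen genes.

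At E12.5 the 3 tools called 0 collagen genes between cKO and control, while edgeR called 0.0261% of all genes. At an unadjusted p under 0.05, 2 collagen genes were higher (Col3a1 and Col23a1) and 0 lower, beside 3.79% of all genes, 2.22% higher and 1.57% lower. The median log2 fold change was 0.09 against 0 over all genes, with 22 higher and 16 lower beside 47% of all genes higher. Col3a1 had counts in only 1 of the 3 cKO libraries. The groups were separated for 2 higher genes (Col4a6 and Col23a1, beside 2.96% of all genes) and 1 lower gene (Col4a5, 2.56% beside 3.01%). Col4a5 was at 10.3, 25.3 and 12.2 CPM in the E12.5 cKO. The test of a different cKO effect at E14.5 and E12.5 in PLET1+ cells called 0 collagen genes and 0% of all genes by edgeR. There were 0 collagen genes at an unadjusted p under 0.05, beside 3.15% of all genes, and 0 by limma-voom and DESeq2.

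Genes that modify, cross-link, bind or degrade collagen were taken from a list of 64, of which 61 were tested. With NICD 32 of the 61 were higher, beside 51.4% of all genes, and edgeR called 1 as lower, beside 0.418% of all genes. This was Fkbp10, a prolyl isomerase of the endoplasmic reticulum needed for cross-linking of type I collagen. Fkbp10 was at 0.119, 0.366, 0.276, 0 and 0.0126 CPM with NICD and at 0.837, 19.3 and 11.04 CPM in PLET1+ controls, without overlap (log2 fold change -6.05, SE 1.35, adjusted p = 0.047). Of the partners of type IV collagen in basement membranes (laminin chains, nidogens, perlecan and agrin), 11 of 15 were higher with NICD, beside the same 51.4% of all genes, and 0 called. Lamb1, Lamc1 and Agrn were higher at an unadjusted p under 0.05, beside 5.66% of all genes. In the PLET1+ cKO 2 of these 15 were higher and 13 lower, beside 48.5% of all genes higher. Again 0 were called, and 0 were at an unadjusted p under 0.05, beside 2.06% of all genes.

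Between E12.5 and E14.5 PLET1+ controls 36 of the 61 were higher at E14.5, beside 55.9% of all genes, and edgeR called 2, beside 0.967% of all genes. Lama4, a laminin chain of vessel and muscle membranes, was at 0.125, 0.752 and 0.0186 CPM at E12.5 and at 7.71, 12.3 and 9.16 CPM at E14.5 (log2 fold change 6.12, SE 1.15, adjusted p = 0.0122). Pcolce, which enhances removal of the C-propeptide from fibrillar procollagen, was at 0.874, 0.131 and 0.0371 CPM and at 15.1, 13.5 and 19.6 CPM (log2 fold change 6.32, SE 1.30, adjusted p = 0.0211). Both genes were separated by stage. In PLET1- against PLET1+ controls 34 of 61 were higher, and in the cKO comparisons 23 (PLET1+), 29 (PLET1-) and 29 (E12.5) were higher. Beside these stood 48.7%, 48.5%, 51.7% and 47% of all genes in that order. Each of these comparisons had 0 of the 61 called by edgeR and between 2 and 3 at an unadjusted p under 0.05. In the same order, 2.87%, 2.06%, 2.34% and 3.79% of all genes were under that p.

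Several collagen genes lie beside each other, and reads could in principle be shared. Of the 44 genes, 13 share exonic bases with another annotated gene, but at most 6.07% of the merged exon length (Col9a3). Reads falling on the shared bases were not counted apart. Counting did not use strand. In RefSeq promoter windows, available for 35 of the 44 genes, the GC box GGGCGG was found in 23 of 38 collagen windows (60.5%) and in 35.7% of all windows, CCAAT in 13 (34.2% against 37.4%) and the RBPJ core TGGGAA in 12 (31.6% against 25.6%). The window of Col4a1, on chromosome 8 from 11312777 to 11313076, lies within annotated exons of Col4a1 and Col4a2 and is not shown.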

How the data were processed

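Libraries were made by Smart-seq2 from 100 sorted cells and sequenced as 75 bp paired reads. The deposited values are raw read counts per gene, which the authors made by trimming with Trimmomatic 0.32, aligning with STAR 2.5.1a and counting with featureCounts (1.5.0-p3 per the file header, 1.5.1 per the submitters' processing notes) on GENCODE M12, GRCm38. Replicates were not pooled. All 23 libraries and 7 groups were used, with groups, replicate numbers and batches from the labels. Gene names came from a later GENCODE release and matched 98.4% of identifiers. Promoters came from RefSeq.

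Levels are TMM-scaled CPM. Of 50123 genes, 19140 passed filterByExpr. One edgeR quasi-likelihood fit (glmQLFit, glmQLFTest) covered the 23 libraries, modelling each group mean and the batches within E12.5 and within the E14.5 Rbpj cross. It gave 6 comparisons of 2 groups and 2 interactions, with Benjamini-Hochberg adjustment over all genes tested and calls at an adjusted p of at most 0.05. A gene separated or without overlap has every library of one group above every library of the other. Described by library were the collagen genes called, the 3 with the highest level per kb in each class and the chains of types I, IV, VI and IX. The other genes are given by count and range. The collagen classes, the pathway and marker lists and the motifs were chosen with earlier results of these data known. Simulated data were used to test the fit.

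Same-numbered libraries were checked for pairing over 8468 genes with a mean of at least 10 CPM. Their deviations from group means correlated between 0.260 and 0.556 for each pair within the E14.5 Rbpj cross. The correlations were not all over 0.1 for NICD, the E12.5 cKO or stage. The fit described held batch terms and did not model these pairs. Pairs entered the fits only as the replicate block among the alternatives. Alternatives were limma-voom, DESeq2, RLE factors, no filter, a filter keeping genes with 10 or more counts in 3 or more libraries and a mean of 50 or more, no batch terms, only the groups compared, the replicate number as a block and the omission of each library. A marker gene and a further scaling are not reported here. Fits used edgeR 4.0.16, DESeq2 1.42.0 and limma 3.58.1 under R 4.3.3, and tables Python 3.11.15.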

Additional observations from a re-analysis of the deposited data

Results flagged for a closer look

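In the NICD group of 5 libraries, the highest or lowest library of 9 among 22 sets of values stood far from the others by Dixon's criterion. For normally distributed values chance alone marks about 1 in 20 such sets. Several of these sets hold mostly counts at or near 0, where that rate does not apply, and the sets share libraries. The 9 of 22 can therefore not be set against that rate. High values were those of Col2a1 at 13.59 CPM, Col6a2 at 8.534 CPM and Col6a3 at 28.84 CPM, all in NICD replicate 2, and of Col9a2 at 0.05518 CPM and Col9a3 at 0.9243 CPM in replicate 3. Col9a1 at 0.05044 CPM in replicate 5 was also high among NICD libraries, although it rests on 4 counts, as does Col9a2. Low values were those of Col18a1 at 24.24 CPM and Col4a2 at 54.98 CPM in replicate 5, and the summed level of the fibrillar genes at 26.11 CPM in replicate 3. The low fibrillar library also had the lowest mesenchyme sum of the group, at 104 CPM, of which Vim gave 81.0 CPM.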

How the results depend on the processing

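For NICD against control, 2 collagen genes were called in the fit described, 5 with DESeq2, 5 without a filter, 0 with only the groups compared (where Col9a1 was not among the genes tested) and 0 to 2 when a library was left out. With all genes, 131 were called, against 998 by limma-voom, 1236 by DESeq2, 677 without a filter and 17 with only the groups compared. The limma-voom fit moved the median log2 fold change of all genes to -0.53, and 14 of 39 collagen genes were then higher. Between E14.5 and E12.5 controls 1 collagen gene was called, but 6 with DESeq2, 0 with limma-voom, 0 without batch terms, 0 with the replicate block, 0 with only the groups compared and 0 to 1 with a library left out. The gene called without a filter was Col3a1, not Col27a1. Without a filter 1 gene, Col3a1, was called for the E12.5 cKO and 1 for PLET1- against PLET1+ controls, where DESeq2 called 2. The E14.5 cKO comparisons and both interactions had 0 collagen calls in every alternative. The replicate block gave Col4a1 an adjusted p of 0.0297 and Col9a1 one of 0.0488 for NICD, Col27a1 one of 0.366 for stage, and changed no other collagen call. Col11a2 (NICD), with counts in 1 control library, had a log2 fold change of -6.22, which ran from -7.16 to 2.37 with a library left out and was 2.37 without that control. Causes of these differences were not tested. With 3 libraries a group, fibrillar genes with an SD near 2 on the log2 scale allow little precision.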
